A study of Mus musculus with 11 samples.

Results

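Every eukaryotic cell copies its genome through the same ordered set of proteins, and the genes described here encode 45 of them, among 51912 genes of the count table. They were chosen by symbol for their roles, from the licensing of replication origins to the supply of deoxynucleotides. All 45 were found in the table by Ensembl identifier and all 45 passed the filter on low counts. The cells were lineage-negative mouse bone marrow cells, strain C57BL/6, that carried retroviral vectors with human oncogenes and were sorted for the fluorescent proteins of both vectors. In this system the vector of the first oncogene is active at once, whereas the vector of the second is switched on by a tamoxifen-activated Cre recombinase. The study describes the system in marrow of Rosa26 ERT2-Cre mice, whereas the labels of these samples give the strain and no Cre allele. CSF3R-only cells (n = 4) expressed an activating, membrane-proximal mutant of CSF3R, the receptor for granulocyte colony-stimulating factor, together with an empty second vector. CSF3R-first cells (n = 3) expressed the same CSF3R mutant first and a C-terminal mutant of CEBPA, a transcription factor of granulocyte differentiation, second. CEBPA-first cells (n = 4) received the mutants in the opposite order. After sorting, all 3 groups were kept for 48 h without cytokines and with 4-hydroxytamoxifen, so each group carried mutant CSF3R and the inducing drug, and no group lacked an oncogene. The vectors drive expression in every cell they enter rather than in one cell type, and the endogenous alleles remain. The labels do not say whether the replicates were separate animals or cultures, so the p-values measure only the spread between these samples.

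Replication is prepared when the origin recognition complex binds DNA and, with CDC6 and CDT1, loads the ring-shaped MCM2-7 helicase, a step called licensing that geminin (Gmnn) blocks by binding CDT1. In S phase CDC45, GINS and MCM10 turn the loaded ring into an unwinding machine, primase and the DNA polymerases copy both strands, PCNA tethers the polymerases, and FEN1 and LIG1 join the pieces of the lagging strand. Many of these genes are transcribed under E2F factors as a cell commits to divide, and in bone marrow they mark proliferating precursors, since neutrophils stop dividing as they mature.

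The depth was 49499527 to 65937530 counts in the CSF3R-only samples, 47905747 to 61069929 for CSF3R-first and 49782847 to 72268346 in CEBPA-first. The lowest count of any of the 45 genes in any sample was 52, for Fen1. Pairs of samples within a group differed by far more than counting noise, with chi-square per degree of freedom from 9.11 to 99.1, so none repeated another library. Expression is given as CPM, the usual counts relative to library size, here after scaling by the trimmed mean of M-values (TMM). A gene was called where edgeR's quasi-likelihood test, in 1 fit of the 3 groups, gave a Benjamini-Hochberg adjusted p under 0.05 over 15703 genes.

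The promoters give a first view of these genes. RefSeq promoters of build GRCm38.p6, from 250 bases before to 50 after a transcription start, were matched for 37 of the 45 genes, and the 250 upstream bases of 4 are printed 5′ to 3′ on the strand of the gene, because Mcm6, Mcm5 and Pola1 carry E2F words at different distances and Cdc45 carries none. Capitals mark the E2F words, TTTCCCGC, TTTGGCGC or TTTCGCGC or their reverse complements GCGGGAAA, GCGCCAAA or GCGCGAAA.
Mcm6, chr1:128359706-128359955, minus strand: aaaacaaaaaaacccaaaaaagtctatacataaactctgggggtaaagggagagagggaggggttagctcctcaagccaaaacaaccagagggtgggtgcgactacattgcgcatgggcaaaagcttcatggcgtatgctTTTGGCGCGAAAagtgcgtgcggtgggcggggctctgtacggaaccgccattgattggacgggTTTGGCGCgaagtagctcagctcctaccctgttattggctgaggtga
Mcm5, chr8:75109259-75109508, plus strand: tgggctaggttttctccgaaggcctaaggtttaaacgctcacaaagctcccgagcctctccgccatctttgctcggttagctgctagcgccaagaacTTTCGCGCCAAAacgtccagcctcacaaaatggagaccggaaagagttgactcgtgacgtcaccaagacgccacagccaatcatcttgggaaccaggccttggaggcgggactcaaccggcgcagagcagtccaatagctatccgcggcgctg
Pola1, chrX:93632156-93632405, minus strand: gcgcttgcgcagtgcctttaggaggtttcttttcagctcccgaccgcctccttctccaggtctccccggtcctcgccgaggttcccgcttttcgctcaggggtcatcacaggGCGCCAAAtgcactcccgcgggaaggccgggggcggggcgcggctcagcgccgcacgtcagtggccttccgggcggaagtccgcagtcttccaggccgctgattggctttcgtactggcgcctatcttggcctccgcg
Cdc45, chr16:18811973-18812222, minus strand: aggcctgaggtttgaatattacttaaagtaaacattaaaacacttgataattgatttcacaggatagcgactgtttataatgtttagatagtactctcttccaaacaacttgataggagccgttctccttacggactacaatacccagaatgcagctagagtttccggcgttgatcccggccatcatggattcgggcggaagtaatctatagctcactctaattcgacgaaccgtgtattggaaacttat

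The Mcm6 stretch held words at positions -110, -106 and -47 relative to the start, the first pair overlapping, and the Mcm5 stretch held overlapping words at -153 and -149. The word of Pola1, which encodes the catalytic subunit of the primase-bound polymerase, lay at -138. Over the 300-base promoters, searched on both strands, 15 of 37 member genes (40.5%) held an E2F word, compared with 2.12% of all 27025 genes with a promoter, 3.91% of those that were tested and 25.0% of 40 genes from a list of further replication genes. They were Orc1, Orc3, Cdc6, Cdt1, Mcm3, Mcm5, Mcm6, Mcm7, Gins3, Pola1, Pold1, Pold3, Pole2, Rfc3 and Lig1. The CCAAT box, the letters CCAAT on either strand, was in 62.2% of the member genes, 45% of the further replication genes, 88.2% of mitotic genes and 42.6% of the tested genes. Mitotic genes had a different make-up, with an E2F word in 1 of 17 and the letters TTTGAA, the core of the cell cycle homology region, in 70.6%, against 13.5% of the member genes, 22.5% of the further replication genes, 14.8% of the tested genes and 20.2% of all genes. For the C/EBP half-palindrome pattern TTGCNNAA the share was 10.8% of the member genes, 5% of the further replication genes, 0 of 17 mitotic genes, 10.5% of the tested genes and 12.2% of all genes. A match describes letters in a window and is no evidence that a factor binds there.

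The first comparison asked how far replication genes differed between cells in which mutant CEBPA came before mutant CSF3R and cells with mutant CSF3R alone. In CEBPA-first cells 44 of the 45 genes were higher than in CSF3R-only, by edgeR at adjusted p of 0.00062 or below, whereas 35.4% of all genes tested were called higher. None was called lower, against 36.6% of all genes. The edgeR test gave 1 of the 45 an unadjusted p under 0.05 in that direction, Rfc2, and DESeq2 called 0 lower. The median log2 fold change of the 45 genes was 0.90, against -0.00 over all genes, and it ran from -0.15 for Rfc2 to 1.31 for Cdc6. In 15 genes by edgeR and 19 by DESeq2 the call came with at least 2-fold, against 8.07% of all genes by edgeR, and in 44 every CEBPA-first sample lay above every CSF3R-only sample, against 34.2%.

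The second comparison asked the same of cells in which mutant CSF3R came first. In CSF3R-first cells 42 of the 45 genes were higher than in CSF3R-only at edgeR adjusted p of 0.0349 or below, against 21.6% of all genes. Again none was called lower (21.1% of all genes), none had an unadjusted p under 0.05 in that direction, and DESeq2 called 0 lower. The median log2 fold change was 0.55, against -0.02 over all genes, from -0.06 for Rfc2 to 0.83 for Cdc45. No member reached 2-fold, by edgeR or DESeq2, whereas 2.13% of all genes did, and 41 did not overlap between the groups, against 20.7% of all genes. Orc4, Orc5 and Rfc2 were not called.

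Both double-mutant groups were then compared with each other, which carry the same mutants and differ in their order and in which vector, constitutive or induced, expresses each. CEBPA-first was higher than CSF3R-first in 38 of the 45 genes at edgeR adjusted p of 0.0436 or below, against 24% of all genes. None was called lower (24.3% of all genes), none had an unadjusted p under 0.05 in that direction and DESeq2 called 0 lower. The median log2 fold change was 0.32, against 0.00 over all genes, from -0.09 for Rfc2 to 0.68 for Pold2. None reached 2-fold by edgeR or DESeq2 (2.57% of all genes by edgeR), and 39 were without overlap and higher in CEBPA-first (27.4% of all genes) and 1, Rfc2, without overlap and lower (24.8% of all genes). Gmnn, Gins3, Gins4, Rfc2, Fen1, Lig1 and Rrm2 were not called. The comparisons share samples, so their lists of called genes are not independent of each other. Without CSF3R-first A, 29 genes were called, the 9 lost calls being Orc4, Orc5, Orc6, Gins1, Gins2, Prim1, Prim2, Rfc3 and Rfc5. Without CSF3R-first C the calls of Orc4, Gins2, Prim1, Rfc3, Rfc5 and Tk1 were lost, and without CSF3R-first B that of Tk1.

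**Figure D1:**
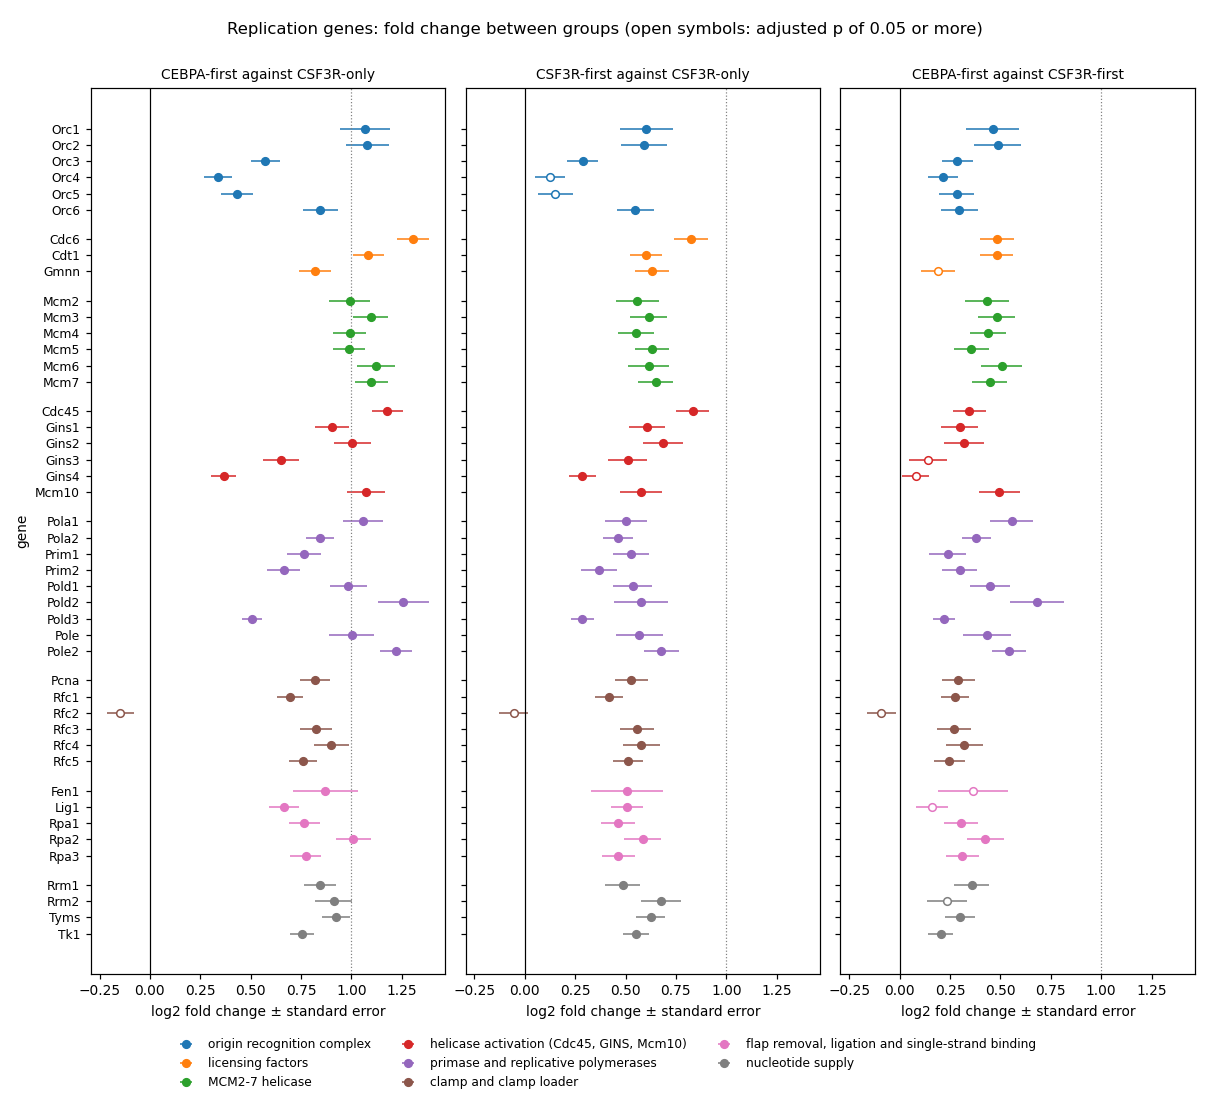
Log2 fold change with its standard error (horizontal axis) for each of the 45 replication genes (vertical axis, coloured by role) in the 3 comparisons, from edgeR. Filled symbols are genes with an adjusted p under 0.05, and the dotted line marks 2-fold; Rfc2 lies at -0.15, -0.06 and -0.09, apart from the other 44 genes, which are all above 0.

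The genes also made up a larger part of the transcriptome. They took 0.388% ± 0.038 of all counts in CSF3R-only (SD, n = 4), 0.599% ± 0.0752 in CSF3R-first (n = 3) and, at the highest, 0.792% ± 0.0391 in CEBPA-first (n = 4). The 3 ranges, 0.337 to 0.421%, 0.518 to 0.666% and 0.745 to 0.831%, did not overlap. In bulk RNA a larger share of cycling cells and more replication mRNA per cell cannot be told apart.

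**Figure D2:**
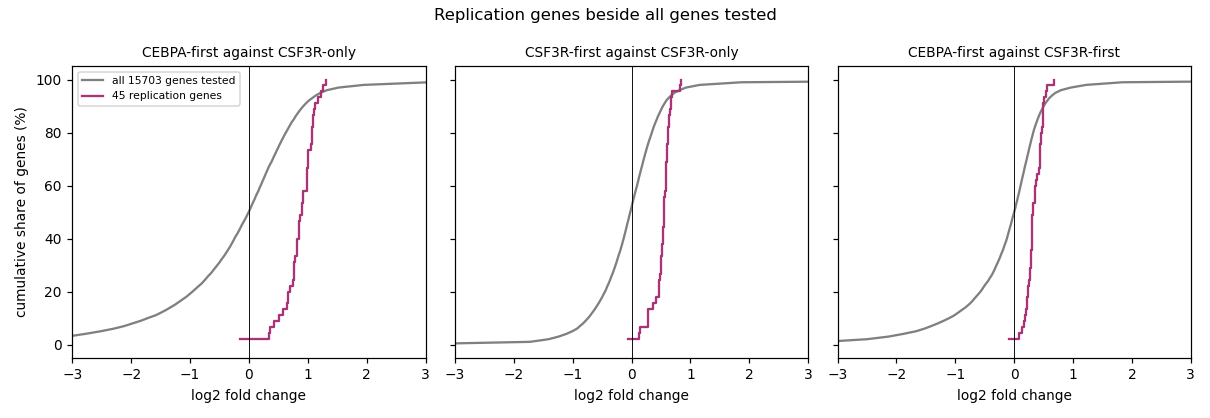
Cumulative share of genes (vertical axis, %) by log2 fold change (horizontal axis) for the 45 replication genes and for all 15703 genes tested, in the 3 comparisons. The curve of the replication genes is steep and lies to the right of 0 except for Rfc2, with medians of 0.90, 0.55 and 0.32 against -0.00, -0.02 and 0.00 for all genes.

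Markers of other cell types and stages also differed between groups, though not all in both double mutants. Of 12 genes of maturing neutrophils, such as Ltf, Ngp and Mmp9, edgeR called 12 lower in CEBPA-first and 11 lower in CSF3R-first than in CSF3R-only, and their summed level was 26836 to 33180 CPM in CSF3R-only, 14647 to 25551 CPM for CSF3R-first and 6507 to 8640 in CEBPA-first. All 4 granule genes of neutrophil precursors (Elane, Mpo, Prtn3, Ctsg) were called higher in both, with sums of 2519 to 3061, 4274 to 4957 and 5872 to 6291 CPM. Summed monocyte and macrophage markers (6 of 7 lower in each double mutant, and Ly6c2 called higher in CEBPA-first) were 2741 to 3512, 1547 to 2648 and 879 to 1219 CPM. For megakaryocytes (5 of 5 lower in each) the sums were 811 to 1104, 320 to 489 and 110 to 152 CPM. Erythroid markers (5 of 6 lower in CEBPA-first, and 0 of 6 called in CSF3R-first) summed to 156 to 221, 66.7 to 208 and 20.1 to 30.7 CPM. Of the 5 mast cell and basophil genes 1 was higher and 2 lower in CEBPA-first and 4 lower in CSF3R-first, with sums of 1476 to 2275, 941 to 1132 and 1077 to 1447 CPM. The 7 stem and progenitor markers, of which 4 rose and 3 fell in CEBPA-first and 2 rose and 2 fell in CSF3R-first, summed to 424 to 619, 278 to 309 and 149 to 158 CPM. Most of the CSF3R-only sum was Ly6a, at 316 to 483 CPM there and 47.3 to 75.3 in CEBPA-first. In CEBPA-first Ly6a, Cd34 and Procr fell, whereas Kit, Mecom, Hlf and Flt3 rose. Mecom was at 0.120 to 0.206 CPM in CSF3R-only and 13.1 to 17.5 in CEBPA-first, so the sum does not describe the list. The 6 B cell genes summed to 3.59 to 4.51, 3.26 to 4.23 and 5.81 to 6.81 CPM. Most of this was Cd79b, which edgeR called higher for CEBPA-first against CSF3R-only (a log2 difference of 0.82), while Cd79a was called lower and Ms4a1, Ebf1 and Pax5 were each at 0.0475 CPM or less in every sample. The 5 T cell genes summed to 0.661 CPM or less, with Cd3e and Trbc2 at 0 in every sample. The sort removed cells with lineage antigens before the culture, and the libraries were made after it. The part of these cell types in the rise of the replication genes was not tested.

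Replicates moved as whole libraries. CSF3R-only A was the lowest of its group in 43 of the 45 genes, CSF3R-first A in 40 and CEBPA-first C in 40, while the B libraries were the highest in 39, 41 and 30 genes. The mean log2 CPM of the 45 genes, relative to the CSF3R-only mean, was -0.17, 0.15, 0.05 and -0.03 in CSF3R-only A to D, 0.40, 0.63 and 0.53 in CSF3R-first A to C, and 0.87, 0.94, 0.78 and 0.87 in CEBPA-first A to D. No group overlapped another on this scale, although CSF3R-first A was nearer to CSF3R-only B than to CEBPA-first C. The libraries in which most of the genes were lowest had the highest summed neutrophil maturation markers of their groups, 33180 CPM in CSF3R-only A, 25551 in CSF3R-first A and 8640 in CEBPA-first C. CEBPA-first A was close to C, at 8575 CPM. At the other end, a B library had the lowest sum only in CSF3R-first (14647 CPM). CSF3R-only C (26836) was below B (28631), and CEBPA-first D (6507) was below B (6977). The part of maturing neutrophils in the spread was not tested.

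**Figure D3:**
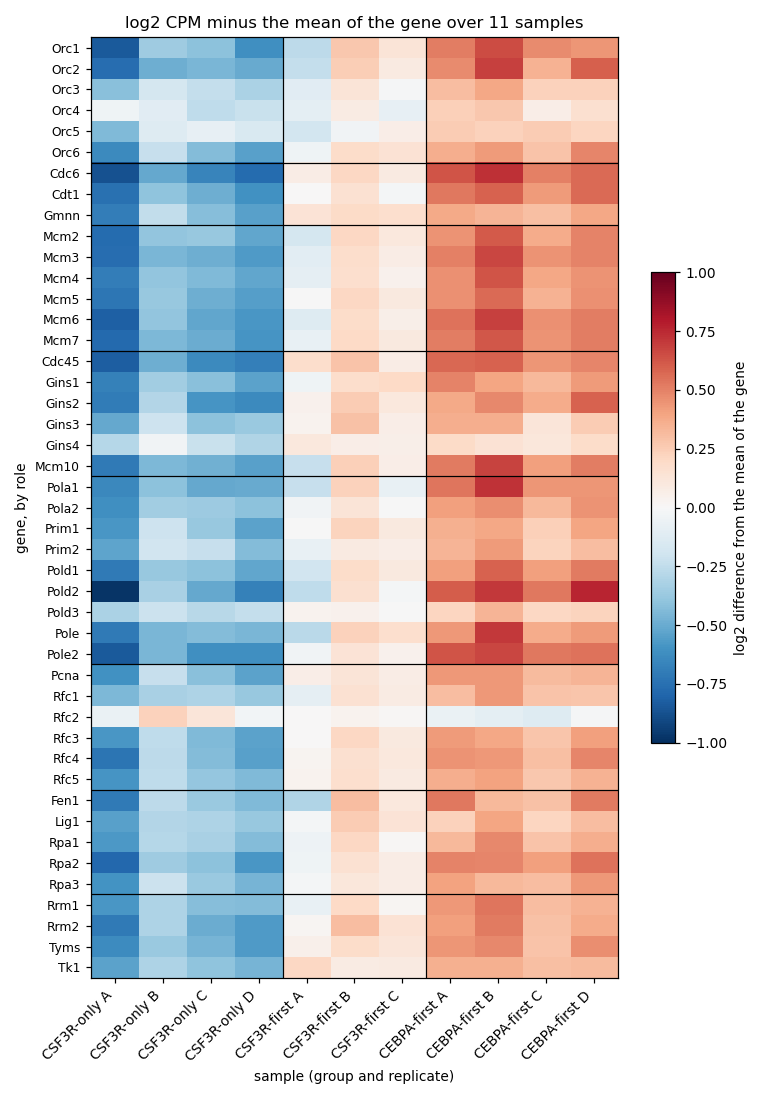
Log2 CPM of each replication gene (rows, by role) in each of the 11 samples (columns), minus the mean of that gene over the samples, from blue (lower) to red (higher). Columns change together, CSF3R-only A being the lowest of its group in 43 genes, and Rfc2 is the row without the rise.

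The origin recognition complex marks the sites where replication can begin. All 6 subunit genes were higher in CEBPA-first than in CSF3R-only, with a median log2 fold change of 0.71, but they were not equal. Orc2 (ENSMUSG00000026037, chr1:58462771-58505109), a core subunit, was at 33.2, 40.2, 41.1 and 39.6 CPM in CSF3R-only A to D, 47.7, 66.8 and 60.0 in CSF3R-first A to C, and 78.1, 90.6, 71.8 and 85.3 in CEBPA-first A to D. Its groups did not overlap, and it was 2.11-fold above the CSF3R-only level in CEBPA-first (log2 1.08 ± 0.11 SE, edgeR adjusted p = 1.37e-06). Orc4 (ENSMUSG00000026761, chr2:48902824-48950277), an ATPase-fold subunit, was at 58.5, 55.5, 50.6 and 51.7 CPM in CSF3R-only, 56.1, 63.8 and 56.8 in CSF3R-first, and 70.8, 72.7, 62.9 and 67.2 in CEBPA-first. CSF3R-first overlapped both other groups in Orc4, and the rise in CEBPA-first was 1.27-fold (log2 0.34 ± 0.07, edgeR adjusted p = 0.00062). In CSF3R-first against CSF3R-only the log2 difference was 0.59 ± 0.11 for Orc2 (edgeR adjusted p = 0.00159) and 0.12 ± 0.07 for Orc4 (adjusted p = 0.202). Between CEBPA-first and CSF3R-first Orc2 differed by 0.49 ± 0.12 on the log2 scale (edgeR adjusted p = 0.00436) and Orc4 by 0.22 ± 0.07 (adjusted p = 0.0302), a call that was lost without CSF3R-first A or C or CEBPA-first A or B, and in a fit of the compared groups alone (adjusted p = 0.0605). With library sizes as the only scaling, Orc4 was called higher in CSF3R-first (edgeR adjusted p = 0.0379), and without CSF3R-first B its difference there was 0.06. Orc1, the subunit with the ATPase that drives helicase loading, behaved like Orc2 with log2 fold changes of 1.07, 0.60 and 0.46, and Orc6 was between, at 0.85, 0.55 and 0.30. Orc3 and Orc5 changed by 0.57 and 0.43 in CEBPA-first against CSF3R-only, and Orc5, at 0.15 with an edgeR adjusted p of 0.179, was not called in CSF3R-first, where its difference was 0.08 without CSF3R-only A. The call of Orc3 in CSF3R-first (log2 0.29, edgeR adjusted p = 0.00915) was lost without CSF3R-first B. Of the exon bases of Orc2, 29.8% also lie in exons of Nif3l1 on the other strand, whose log2 fold change in CEBPA-first was 0.41.

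Levels were compared between subunits only per length, in TPM, which are counts per kilobase of exon scaled to the same total in every library. The length is the union of all annotated exons of a gene, not that of the transcript expressed. Levels and ratios between genes therefore depend on the annotation. Orc6 had the highest CEBPA-first value on this scale, at 45.7 ± 5.3 TPM in CSF3R-only (SD, n = 4), 72 ± 9.9 in CSF3R-first (n = 3) and 98.7 ± 8.6 in CEBPA-first (n = 4). Orc1 had 11.2, 18.5 and 28.2 TPM. The ratio of Orc1 to Orc2 on this scale was 0.435, 0.439 and 0.435 in the 3 groups, with two-sided exact permutation p of 0.971 for CEBPA-first and 0.914 for CSF3R-first against CSF3R-only, and 0.8 between the double mutants. Orc1 to Orc4 was 0.606 ± 0.112 in CSF3R-only, 0.836 ± 0.116 for CSF3R-first and 0.997 ± 0.045 in CEBPA-first, and each CEBPA-first sample was above every other sample. Orc6 to Orc2 was 1.78 ± 0.16 in CSF3R-only, 1.74 ± 0.16 for CSF3R-first and 1.52 ± 0.09 in CEBPA-first, and each CEBPA-first sample was below every other sample. For both of these ratios the exact permutation p for CEBPA-first against either group was 0.0286, the smallest that these sample sizes allow, and 0.0536 after adjustment over the 15 ratio tests, so no ratio passed the threshold.

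**Figure D4:**
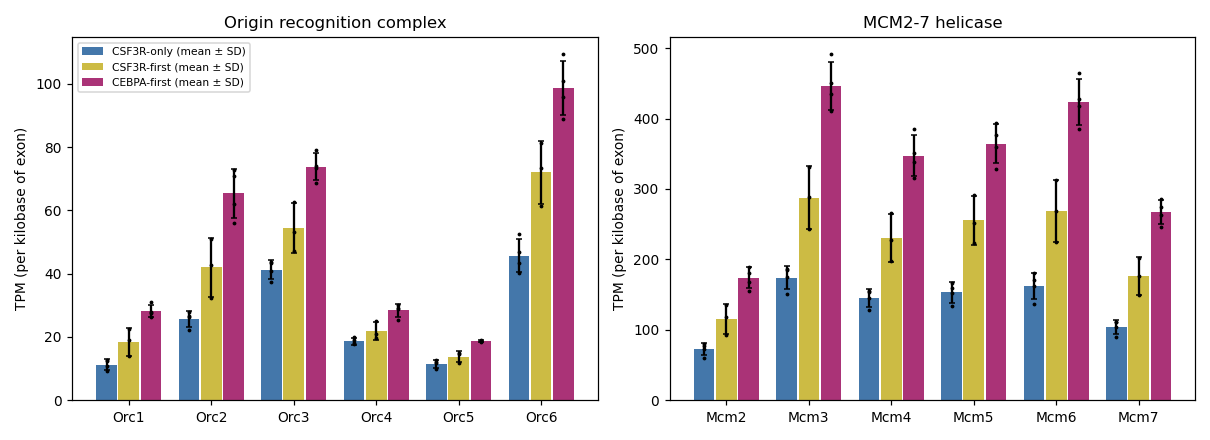
TPM (vertical axis, counts per kilobase of exon scaled to the same total per library) of the subunits of the origin recognition complex (left) and of the MCM2-7 helicase (right); bars are group means, error bars 1 SD and points single samples. The MCM subunits rise side by side, Mcm3 from 174 to 447 TPM, whereas Orc4 and Orc5 rise less than Orc1, Orc2 and Orc6.

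Licensing also needs CDC6 and CDT1, which bring the helicase to the origin complex. Cdc6 (ENSMUSG00000017499, chr11:98907801-98923940) had the largest rise of the 45 genes in CEBPA-first against CSF3R-only. It was at 45.8, 58.9, 53.0 and 49.3 CPM in CSF3R-only, 88.3, 97 and 89.3 in CSF3R-first, and 130, 139, 119 and 124 in CEBPA-first, with no overlap between any groups. The CEBPA-first level was 2.47-fold that of CSF3R-only (log2 1.31 ± 0.08, edgeR adjusted p = 2.09e-08). CSF3R-first was 1.77-fold above CSF3R-only (log2 0.82 ± 0.08, edgeR adjusted p = 2.51e-05), and CEBPA-first a further 1.4-fold above CSF3R-first (log2 0.48 ± 0.09, adjusted p = 0.00067). Cdt1 had log2 fold changes of 1.08, 0.60 and 0.48 in the same order. Gmnn (ENSMUSG00000006715, chr13:24751845-24761923), the inhibitor of CDT1, was at 49.1, 66.6, 59.0 and 54.2 CPM in CSF3R-only, 86.8, 90.3 and 88.8 in CSF3R-first, and 103, 100, 97.4 and 104 in CEBPA-first. It rose 1.76-fold in CEBPA-first (log2 0.82 ± 0.08, edgeR adjusted p = 1.01e-06) and 1.55-fold in CSF3R-first (log2 0.63 ± 0.08, adjusted p = 0.000158). Between both double mutants Gmnn did not overlap but its difference missed the threshold (log2 0.19 ± 0.08, edgeR adjusted p = 0.0826). That difference was called with library sizes alone, in a fit of the compared groups, and without CSF3R-only A or B (edgeR adjusted p from 0.0296 to 0.0489). Per length, the ratio of Cdt1 to its inhibitor Gmnn was 0.397 ± 0.0122 in CSF3R-only, 0.388 ± 0.0205 for CSF3R-first and 0.476 ± 0.0177 in CEBPA-first, where the lowest sample, 0.461, was above the highest elsewhere, 0.410. Its exact permutation p against each other group was 0.0286, and 0.0536 after adjustment. Both proteins are regulated by degradation during the cell cycle, and protein was not measured here.

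**Figure D5:**
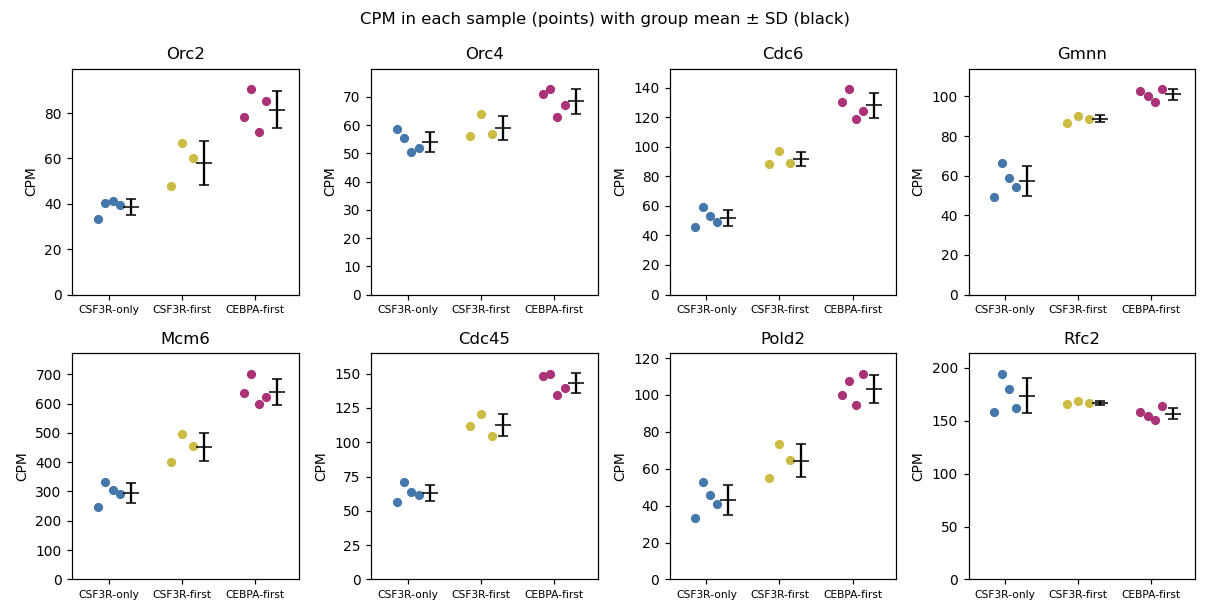
CPM in each sample (vertical axis, starting at 0) of 8 replication genes in CSF3R-only (blue), CSF3R-first (yellow) and CEBPA-first (purple), with the group mean ± SD in black. Cdc6 goes from 45.8 to 58.9 CPM in CSF3R-only to 119 to 139 in CEBPA-first, Orc4 overlaps between neighbouring groups, and Rfc2 does not rise, its CEBPA-first samples lying below its CSF3R-first samples.

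The MCM2-7 ring is the motor of the replication fork, and its 6 genes were the most even group. Their log2 fold changes in CEBPA-first against CSF3R-only ran only from 0.99 to 1.12, in CSF3R-first from 0.55 to 0.65, and between the double mutants from 0.36 to 0.51, and all 6 were called in each comparison. Mcm6 (ENSMUSG00000026355, chr1:128331590-128359664), with the E2F words printed above, rose most in CEBPA-first. It was at 249, 332, 305 and 292 CPM in CSF3R-only, 400, 496 and 456 in CSF3R-first, and 636, 701, 599 and 623 in CEBPA-first. These values do not overlap, and CEBPA-first was 2.17-fold above CSF3R-only (log2 1.12 ± 0.10, edgeR adjusted p = 3.49e-07). Mcm5 (ENSMUSG00000005410, chr8:75109569-75128439) was at 208, 263, 244 and 234 CPM in CSF3R-only, 341, 396 and 366 in CSF3R-first, and 469, 508, 436 and 469 in CEBPA-first. It had the smallest rise of the ring at 1.98-fold (log2 0.99 ± 0.08, edgeR adjusted p = 2.68e-07), again without overlap. In CSF3R-first against CSF3R-only the log2 changes were 0.62 ± 0.10 for Mcm6 and 0.63 ± 0.09 for Mcm5 (edgeR adjusted p = 0.000597 and 0.000186). CEBPA-first exceeded CSF3R-first by 0.51 ± 0.10 on the log2 scale in Mcm6 and 0.36 ± 0.09 in Mcm5 (edgeR adjusted p = 0.00171 and 0.00515). Per kilobase of annotated exon, the highest subunit was 2.40, 2.50 and 2.58 times the lowest in the 3 groups (CSF3R-only first, CEBPA-first last). Mcm3 was at the top (174, 287 and 447 TPM) and Mcm2 at the bottom (72.7, 116 and 174 TPM). The exon lengths used were 3752 bases for Mcm3 and 6956 for Mcm2. In CPM Mcm2, at 196 on average in CSF3R-only, was above Mcm7, at 179. The ring holds each subunit once, but this spread depends on the annotated lengths and does not show unequal numbers of transcripts. Of the longest annotated transcript of Mcm7, 72.8% is near-identical to Gm5487, which had 0 counts, and how the counting treated reads that match both is not stated.

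Helicase activation joins CDC45 and the GINS tetramer to the ring. Cdc45 (ENSMUSG00000000028, chr16:18780447-18811987) was at 56.1, 70.8, 63.6 and 61.8 CPM in CSF3R-only, 112, 121 and 104 in CSF3R-first, and 148, 150, 134 and 139 in CEBPA-first. The groups did not overlap, and Cdc45 had the largest rise of the 45 genes in CSF3R-first, 1.78-fold (log2 0.83 ± 0.08, edgeR adjusted p = 1.57e-05), and 2.26-fold in CEBPA-first (log2 1.18 ± 0.08, adjusted p = 3.18e-08). CEBPA-first was 1.27-fold above CSF3R-first (log2 0.35 ± 0.08, edgeR adjusted p = 0.00383). Within GINS, Gins1 rose 1.87-fold in CEBPA-first, Gins2 2.01-fold and Gins3 by 0.65 on the log2 scale. Gins4 (ENSMUSG00000031546, chr8:23226616-23237659) was at 41.6, 49.5, 43.6 and 41.2 CPM in CSF3R-only, 54.6, 53.1 and 53.0 in CSF3R-first, and 58.0, 56.1, 54.9 and 57.6 in CEBPA-first. Both double mutants were above every CSF3R-only sample, by 1.29-fold in CEBPA-first (log2 0.37 ± 0.06, edgeR adjusted p = 0.000144) and 1.22-fold in CSF3R-first (log2 0.28 ± 0.07, adjusted p = 0.00486), and the log2 difference between them was 0.08 ± 0.07 (adjusted p = 0.343). Gins3 also missed the threshold between the double mutants (log2 0.14, edgeR adjusted p = 0.246), with 0.10 without CSF3R-first A and 0.23 without CSF3R-first B. Mcm10, which helps the helicase to start, had log2 fold changes of 1.07, 0.58 and 0.50. In Gins2 67.3% of the exon bases lie within exons of Gse1, whose log2 fold change in CEBPA-first was -0.30.

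The primase and the 3 replicative polymerases lay the primers and copy both strands. All 9 genes were called higher in each comparison, with median log2 fold changes of 0.98, 0.53 and 0.43. Pold2 (ENSMUSG00000020471, chr11:5872180-5878292), the second subunit of polymerase delta, was at 33.2, 52.6, 46.0 and 41.1 CPM in CSF3R-only, 55.2, 73.5 and 64.7 in CSF3R-first, and 100, 107, 94.5 and 111 in CEBPA-first. It was the gene with the largest difference between the double mutants, 1.6-fold (log2 0.68 ± 0.14, edgeR adjusted p = 0.00149). Against CSF3R-only it was 2.39-fold higher in CEBPA-first (log2 1.26 ± 0.13, edgeR adjusted p = 1.39e-06) and 1.49-fold in CSF3R-first (log2 0.58 ± 0.13, adjusted p = 0.00444). Pold3 (ENSMUSG00000030726, chr7:100082111-100121565), an accessory subunit of the same enzyme, was at 74.8, 80.4, 77.2 and 79.3 CPM in CSF3R-only, 95.8, 96.3 and 93.0 in CSF3R-first, and 108, 118, 108 and 109 in CEBPA-first. Its rise was the smallest of this role but among the most precise, 1.42-fold (log2 0.51 ± 0.05, edgeR adjusted p = 1.47e-06), then 1.22-fold in CSF3R-first (log2 0.29 ± 0.05, adjusted p = 0.0015) and 1.16-fold between the double mutants (log2 0.22 ± 0.05, adjusted p = 0.0058). The catalytic subunits Pola1 and Pold1 rose by 1.06 and 0.98 on the log2 scale in CEBPA-first, and Pole2, the second subunit of polymerase epsilon, by 1.22. Pole, its catalytic subunit, went from 29.0, 34.6, 35 and 34.5 CPM in CSF3R-only to 64.1, 77.5, 61.3 and 63.6 CPM in CEBPA-first. The primase subunits Prim1 and Prim2 rose by 0.77 and 0.66. Of these, Prim1 had the weakest call between the double mutants (log2 0.24, edgeR adjusted p = 0.0436), lost without any of CSF3R-only C, CSF3R-first A or C, or CEBPA-first A, B or D, and under a filter of 10 counts or more per library (adjusted p = 0.0563).

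The sliding clamp PCNA is placed on DNA by the clamp loader, whose subunits are encoded by Rfc1 to Rfc5. Pcna rose by 0.82, 0.53 and 0.29 on the log2 scale in the 3 comparisons. Of the 5 loader genes, 4 were higher in every comparison. Rfc4 (ENSMUSG00000022881, chr16:23113943-23127737) was at 32.9, 45.6, 40.5 and 37.5 CPM in CSF3R-only, 55.5, 61.1 and 58.6 in CSF3R-first, and 74.4, 73.5, 67.2 and 76.7 in CEBPA-first. Rfc4 did not overlap between groups, and its rise in CEBPA-first was 1.87-fold (log2 0.90 ± 0.09, edgeR adjusted p = 1.1e-06), with 1.49-fold in CSF3R-first (log2 0.58 ± 0.09, adjusted p = 0.000541) and 1.25-fold between the double mutants (log2 0.32 ± 0.09, adjusted p = 0.0133). Rfc2 (ENSMUSG00000023104, chr5:134581366-134601805) was the exception. It was at 158, 194, 180 and 162 CPM in CSF3R-only, 166, 169 and 166 in CSF3R-first, and 158, 155, 151 and 164 in CEBPA-first. All 3 CSF3R-first values and 1 of the 4 CEBPA-first values fell within the CSF3R-only range, and the 4 CEBPA-first values lay below the 3 CSF3R-first values. The log2 differences were -0.15 ± 0.07 in CEBPA-first (edgeR adjusted p = 0.0635), -0.06 ± 0.07 in CSF3R-first (adjusted p = 0.568) and -0.09 ± 0.07 between the double mutants (adjusted p = 0.317). The first of these was called lower without CSF3R-only A or without CSF3R-only D, whereas without CSF3R-only B it was -0.09 and the second was 0.00. Of the exon bases of Rfc2, 15.1% lie within exons of Lat2, a signalling adaptor gene on the opposite strand, which was at 101, 52.7 and 22.4 CPM on average and fell by 2.17, 0.94 and 1.23 on the log2 scale in the same comparisons. Whether the counting used strand is not stated, and the part of Lat2 reads in the counts of Rfc2 was not tested. Of the longest annotated transcript of Pcna, 51.4% is near-identical to Pcna-ps2, which had at most 159 counts. Shorter stretches were found in Tyms (9.27%, matching genes with up to 8372 counts) and Rrm2 (8.80%, up to 17). They were also found in Rfc5 (3.55%, up to 30) and Mcm2 (3.09%, up to 3296).

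FEN1 and LIG1 finish the lagging strand, and the RPA trimer, encoded by Rpa1 to Rpa3, covers single-stranded DNA. Rpa2 (ENSMUSG00000028884, chr4:132768332-132778752) was at 49.6, 66.8, 64.2 and 57.0 CPM in CSF3R-only, 82.9, 94.8 and 89.6 in CSF3R-first, and 121, 120, 113 and 125 in CEBPA-first. It rose 2.01-fold in CEBPA-first without overlap (log2 1.01 ± 0.09, edgeR adjusted p = 3.33e-07), 1.5-fold in CSF3R-first (log2 0.58 ± 0.09, adjusted p = 0.000425) and differed 1.34-fold between the double mutants (log2 0.42 ± 0.09, adjusted p = 0.00249). Rpa1 and Rpa3 each rose by 0.77 on the log2 scale in CEBPA-first and by 0.46 in CSF3R-first. Lig1 (ENSMUSG00000056394, chr7:13277283-13311433), DNA ligase I, was at 82.3, 97.4, 96.9 and 92.1 CPM in CSF3R-only, 118, 143 and 132 in CSF3R-first, and 140, 157, 139 and 149 in CEBPA-first. Both double mutants were above CSF3R-only and overlapped each other. The rise was 1.59-fold in CEBPA-first (log2 0.67 ± 0.07, edgeR adjusted p = 3.84e-06) and 1.42-fold in CSF3R-first (log2 0.51 ± 0.08, adjusted p = 0.000479), and the log2 difference between the double mutants was 0.16 ± 0.08 (adjusted p = 0.12), which was 0.10 without CSF3R-first A and 0.23, and called, without CSF3R-first B (adjusted p = 0.045). Fen1, the flap nuclease, was listed at only 1.12 to 1.54 CPM in CSF3R-only, 1.5 to 2.31 for CSF3R-first and 2.28 to 2.69 in CEBPA-first. Of its exon bases 84.2% lie in exons of the neighbouring Tmem258 and Gm10143, and how the counting treated the shared bases is not stated. Its log2 fold change was 0.87 in CEBPA-first and 0.51 in CSF3R-first (edgeR adjusted p = 0.000328 and 0.0349), and the second call was lost without any of CSF3R-only A, C or D or CSF3R-first B or C, in a fit of the compared groups alone (adjusted p = 0.0759) and without the low-count filter (adjusted p = 0.0506). Between the double mutants Fen1 differed by 0.36 (edgeR adjusted p = 0.101), a value that was 0.22 without CSF3R-first A and 0.51, and called, without CSF3R-first B (adjusted p = 0.0441).

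Ribonucleotide reductase, with its large subunit Rrm1 and its small subunit Rrm2, makes deoxynucleotides, while thymidylate synthase (Tyms) and thymidine kinase (Tk1) feed the thymidine pool. Tyms (ENSMUSG00000025747, chr5:30058202-30073617) was at 58.1, 69.5, 65.2 and 60.8 CPM in CSF3R-only, 93.1, 102 and 97.9 in CSF3R-first, and 122, 125, 109 and 124 in CEBPA-first. No group overlapped another, and the rise was 1.9-fold in CEBPA-first (log2 0.92 ± 0.07, edgeR adjusted p = 1.15e-07), 1.54-fold in CSF3R-first (log2 0.62 ± 0.07, adjusted p = 6.78e-05) and 1.23-fold between the double mutants (log2 0.30 ± 0.07, adjusted p = 0.00522). Tk1 (ENSMUSG00000025574, chr11:117815526-117826092) was at 30.3, 35.4, 33.2 and 31.8 CPM in CSF3R-only, 50.5, 46.5 and 46.6 in CSF3R-first, and 55.9, 56.1, 53.9 and 54.6 in CEBPA-first. It too separated the groups, with 1.69-fold in CEBPA-first (log2 0.75 ± 0.06, edgeR adjusted p = 1.83e-07), 1.46-fold in CSF3R-first (log2 0.55 ± 0.06, adjusted p = 5.82e-05) and 1.15-fold between the double mutants (log2 0.20 ± 0.06, adjusted p = 0.0185). Rrm1 rose by 0.84, 0.49 and 0.36 on the log2 scale. Rrm2, the highest of the 45 genes in TPM at 376, 648 and 849.5, rose by 0.91 and 0.68 in CEBPA-first and CSF3R-first, and its log2 difference of 0.24 between the double mutants missed the threshold (edgeR adjusted p = 0.0663). It was called with library sizes alone, with a replicate block, and without CSF3R-only A or B or CSF3R-first B (edgeR adjusted p from 0.0141 to 0.0497). Per length, Rrm2 to Rrm1 was 5.22 ± 0.224 in CSF3R-only, 5.97 ± 0.0659 for CSF3R-first and 5.49 ± 0.0765 in CEBPA-first. The exon lengths used were 2771 bases for Rrm2 and 11012 for Rrm1, so the size of the ratio is not a ratio of transcript numbers. In this ratio CSF3R-first was above all samples of the other groups, with an exact permutation p of 0.0286 against each and 0.0536 after adjustment.

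Promoter words were set beside these changes as a description. In CEBPA-first against CSF3R-only the median log2 fold change was 1.06 for the 15 genes with an E2F word, such as Mcm6 and Pola1, 0.84 for the 22 without one, such as Cdc45 and Orc4, and 0.86 for the 8 that had no promoter entry. In CSF3R-first the medians were 0.60, 0.54 and 0.56, and between the double mutants 0.45, 0.31 and 0.30. The ranges overlapped, since Pold3 has a word and rose by 0.51, and Pold2 has none and rose by 1.26.

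Further replication genes, from a list of 49 that were all tested, moved in both directions. In CEBPA-first 40 were higher and 5 lower than in CSF3R-only with a median log2 fold change of 0.84, in CSF3R-first 38 were higher and 2 lower with a median of 0.50, and between the double mutants 33 were higher and 4 lower with a median of 0.33. Over all genes tested the shares were 35.4% higher and 36.6% lower, 21.6% and 21.1%, and 24% and 24.3% in the same order. All 10 chromatin assembly genes rose in CEBPA-first, and 9 of 12 initiation genes, 16 of 18 fork and elongation genes and 5 of 9 nucleotide genes, of which 3 others fell. The largest rises in CEBPA-first were those of Shmt1, a folate enzyme that serves thymidylate synthesis (log2 1.54 ± 0.15, edgeR adjusted p = 9.28e-07), the chromatin remodeller Hells (log2 1.36 ± 0.11, adjusted p = 1.93e-07) and the exonuclease Exo1 (log2 1.26 ± 0.09, adjusted p = 9.31e-08). Shmt1 was at 26.9, 41.2, 40.8 and 34.2 CPM in CSF3R-only and 99.0, 111, 93.4 and 112 in CEBPA-first.

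The genes that fell most were Samhd1 and Tk2, of nucleotide metabolism, and Pold4, of the same polymerase delta as Pold1, Pold2 and Pold3. Samhd1, an enzyme that degrades deoxynucleotides, was at 483, 452, 416 and 399 CPM in CSF3R-only, 326, 209 and 222 in CSF3R-first, and 125, 111, 129 and 98.0 in CEBPA-first. The groups did not overlap, and Samhd1 fell by 1.92 on the log2 scale in CEBPA-first (SE 0.14, edgeR adjusted p = 8.02e-08) and by 0.80 in CSF3R-first (SE 0.15, adjusted p = 0.00115). Tk2, the mitochondrial thymidine kinase, fell by 1.01 in CEBPA-first (SE 0.08, edgeR adjusted p = 1.68e-07), in contrast to the rise of the cytosolic Tk1. Pold4, the small subunit of polymerase delta, fell by 0.56 (SE 0.09, edgeR adjusted p = 8.04e-05), while Pold1, Pold2 and Pold3 rose. In CSF3R-first Pold4 had a log2 difference of -0.13 (edgeR adjusted p = 0.316), which was -0.24 and called lower without CSF3R-first A (adjusted p = 0.0417) and -0.02 without CSF3R-first B.

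Mitotic genes were taken as a second set of cell cycle genes. All 20 were higher in CEBPA-first and all 20 in CSF3R-first than in CSF3R-only, with median log2 fold changes of 0.70 and 0.48, and 12 were higher in CEBPA-first than in CSF3R-first with a median of 0.23, beside 35.4%, 21.6% and 24% of all genes. Their largest rise in CEBPA-first was that of the spindle kinase Ttk, 0.97, which lay above the median of the 45 replication genes, 0.90, and below the median of the MCM2-7 genes, 1.04. Mki67, the proliferation antigen, named after its values were seen, had the smallest rise in CEBPA-first, 0.22 (SE 0.06, edgeR adjusted p = 0.00386), and rose by 0.38 in CSF3R-first (SE 0.06, adjusted p = 0.000642). The log2 difference of Mki67 between the double mutants was -0.15 (edgeR adjusted p = 0.0575), called lower by DESeq2 at an adjusted p of 0.0369. It was also called lower by edgeR under a filter of 10 counts or more per library, in a fit of the compared groups alone and without CSF3R-only B (log2 -0.19 to -0.16, adjusted p from 0.0296 to 0.041).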

How the data were processed

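RNA from 11 sorted and cultured samples had been made into libraries with a SMARTer low input kit and sequenced as single reads. Per the study's methods and the submitters' processing notes, the authors trimmed reads with Trimmomatic, aligned them with STAR to mm10 and used DESeq2. The deposited table holds raw counts of reads for each gene, with no normalization by the authors. The counting tool, its annotation and its use of strand are not given in the sources used here. Those sources mention no molecular identifiers.

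The 45 genes, the gene lists and the tests were chosen with earlier results of these data known. Genes were fitted with edgeR 4.0.16 in R 4.3.3 (filterByExpr, TMM, glmQLFit and glmQLFTest, 1 fit of 3 groups, no covariates), which left 15703 of 51912 genes, and p-values were adjusted over all of them by the Benjamini-Hochberg method. Standard errors were derived from the fold change and its F statistic (their ratio, with F square-rooted). Log2 CPM used a prior count of 2. Genes named in full are those with the largest and the smallest change per role in CEBPA-first against CSF3R-only, and, among other replication and mitotic genes, the 3 that rose and the 3 that fell most. TPM used the union of exons of GENCODE M21 (GRCm38). Ratios were compared by two-sided exact permutation tests on their log2 values. Near-identical stretches (at least 100 bases at 97%) were found with BLAST 2.17.0. The code was tested on simulated data. Alternatives were DESeq2 1.42.0, 3 other scalings, 2 other filters, 2 other call thresholds, a fit of the compared groups, a replicate block, a prior count of 0.5 and the omission of each sample. No protein sequences were used here.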

Additional observations from a re-analysis of the deposited data

Results flagged for a closer look

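Within the CSF3R-only and CEBPA-first groups, each of the 45 genes was checked for a sample far from its group, which gave 90 checks and by chance would mark about 4.5. Marked were 2. Pole was at 29.0 CPM in CSF3R-only A, and the nearest other sample of the group was at 34.5. Pold3 was at 118 CPM in CEBPA-first B, with the nearest at 109.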

How the results depend on the processing

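For the 45 genes in 3 comparisons under 19 alternatives, 2518 results kept their side of the threshold, 2 of them, not called in either fit, with a change of sign, 15 passed it newly, 32 no longer passed it, and no called result changed sign. The median log2 fold change in CEBPA-first against CSF3R-only was 1.03 with library sizes alone, a scaling that moved the median of all genes by 0.13, and 0.97 without a filter. Rfc2 made 1 gene called lower with at least 10 counts in every sample (log2 -0.18, adjusted p = 0.0185). With at least 2-fold required, 15, 0 and 0 genes were called in the 3 comparisons, and 12 between the double mutants against a fold of 1.2. Leaving out 1 sample at a time gave 44 genes called higher in CEBPA-first and 40 to 42 in CSF3R-first against CSF3R-only, and 29 to 40 between the double mutants. In the same runs 0 to 1 was called lower in CEBPA-first, the medians were 0.82 to 0.95, 0.48 to 0.62 and 0.28 to 0.39, and 44, 41 to 43 and 38 to 44 genes did not overlap. A prior count of 0.5 left the mean log2 CPM of each group at 5.83, 6.35 and 6.70.

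With the replicate letter as a block, 44, 42 and 39 genes were called, Rrm2 being added between the double mutants (log2 0.25, adjusted p = 0.0141). The correlation of same-letter deviations was from -0.11 to 0.36, positive in 9 of 10 pairs, and not every sample matched its own letter best. The labels do not say what the letters stand for, and whether they pair the samples was not settled by these values.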
